A study of Homo with 2 samples.

Results

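The transcripts described here are those of 8 genes of the primitive streak and the early mesoderm, TBXT, EOMES, TBX6, MESP1, MSGN1, MIXL1, APLNR and RSPO3, chosen by symbol from 28363 genes found in the table of either library (25556 in both). They were read in human blastoids, which are aggregates that resemble a blastocyst, made here from the established human embryonic stem cell line KhES1. Stem cells kept on Matrigel in mTeSR-1 medium were dissociated and aggregated in microwells in high-glucose DMEM with 10% serum (FBS) and 10 µM of the ROCK inhibitor Y27632. The aggregates then stayed in hydrogel in the same medium for 4 days, and this 1 condition was sequenced as 2 libraries by droplet single-cell RNA sequencing. All cells therefore share 1 line, the serum and the inhibitor, and no untreated or stem cell sample was analysed here. The comparisons below are between cells within the libraries, and the 2 libraries are the replicates. The labels do not say that they came from separate cultures, so the spread between them may be technical.

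The primitive streak is the site in the posterior epiblast where pluripotent cells leave the epithelium and become mesoderm and definitive endoderm. WNT, BMP and NODAL signals induce it. TBXT (brachyury), EOMES and TBX6 are T-box transcription factors: TBXT marks the whole streak, EOMES acts early in mesendoderm, and TBX6 acts later in presomitic mesoderm. MESP1 and MSGN1 are basic helix-loop-helix factors, of nascent (including cardiac) mesoderm and of presomitic mesoderm. MIXL1 is a homeobox factor of mesendoderm, APLNR is the receptor for the peptides apelin and APELA and is found on nascent mesoderm, and RSPO3 is a secreted R-spondin that strengthens WNT signalling through LGR receptors.

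A barcode counted as a cell where it showed 1000 genes or more and no more than 20% of its unique molecular identifiers (UMIs) were mitochondrial, which left 937 of 1988 barcodes in library 1 and 1519 of 2601 in library 2. Median depth was 35059 and 25116 UMIs per cell, and 7273 and 6319 genes. No kept barcode was shared by the libraries. Scrublet marked 4 and 2 barcodes as doublets, of which 2 and 0 held UMIs of 3 or more of the 8 genes. Those barcodes were kept. Clusters made without the 8 genes and without a list of related streak genes separated a large trophectoderm/amnion-like class (711 and 997 cells) from a pluripotent epiblast-like cluster of 51 and 83 cells. In that cluster all 15 of 15 pluripotent epiblast markers reached 10 CPM (CPM is UMIs of a gene per 1000000 UMIs of the cells summed).

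All 8 genes were detected in both libraries, each at a low level over all cells. Levels in CPM are compared between genes without division by length, because each captured molecule gives 1 tag at its 3' end. Among the T-box genes, TBXT, at 6:166157656-166168655 in the RefSeq annotation of GRCh38.p14, stood at 5.85 CPM in the first library and 7.76 in the other (6.80 ± 1.35, SD, n = 2). EOMES (3:27715953-27722713) stood at 3.58 and 10.1 CPM (6.82 ± 4.58, SD, n = 2), 2.81 times higher in library 2. TBX6 (16:30085793-30091924) stood at 4.72 and 3.39 CPM (4.06 ± 0.943, SD, n = 2). EOMES was thus the member whose level differed most between the libraries. The nascent mesoderm factor MESP1 (15:89732446-89751249) went the other way, with 9.74 and 4.32 CPM (7.03 ± 3.83, SD, n = 2). MSGN1 (2:17816460-17817798) differed little, at 6.25 and 5.28 CPM (5.76 ± 0.684, SD, n = 2).

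The homeobox gene MIXL1 (1:226223664-226227060) had the highest level of the 8, with 15 and 26.7 CPM (20.8 ± 8.28, SD, n = 2). The receptor gene APLNR (11:57233591-57237250) had the lowest mean, with 4.48 and 2.53 CPM (3.50 ± 1.38, SD, n = 2). The ligand gene RSPO3 (6:127118671-127199481) stood at 11.6 and 8.49 CPM (10.0 ± 2.21, SD, n = 2). In falling order of the mean the genes were MIXL1, RSPO3, MESP1, EOMES, TBXT, MSGN1, TBX6 and APLNR. Of the 7 neighbouring pairs in that order, the library values of MIXL1 and RSPO3 did not overlap, nor did those of MSGN1 and TBX6, and the other 5 pairs overlapped. Summed over the 8 genes the level was 61.2 and 68.5 CPM, so the sum differed less between libraries than EOMES, MESP1 or MIXL1 did. In the annotation TBXT overlaps LNCDAT, MESP1 overlaps WDR93 and RSPO3 overlaps LOC105377989. No source used here says whether strand was used in counting, so UMIs from the shared stretches may be misassigned.

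These low averages came from few cells with many transcripts. TBXT UMIs were present in 29 of the 937 cells in library 1 (3.09%, exact 95% interval from 2.08 to 4.41) and 54 of the 1519 in library 2 (3.55%, 2.68 to 4.61), with up to 35 and 48 UMIs in a single cell. MSGN1 was found in 22 and 18 cells, and the 10 cells highest in it held 88.0% and 94.0% of its UMIs. MIXL1 reached 99 UMIs in a cell of library 1 and 219 in a cell of library 2. Most TBX6 cells held a single UMI. Its 78 positive cells in each library included 51 and 61 with exactly 1 UMI, and its 10 highest cells held 49.7% of its UMIs in both libraries. EOMES was found in 28 and 57 cells, MESP1 in 32 and 34, MIXL1 in 69 and 103, APLNR in 27 and 24 and RSPO3 in 61 and 72.

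Free RNA in droplets can give a cell a UMI of a gene it does not express, so the shares were also taken after thinning each cell to 5000 UMIs and set beside the trophectoderm/amnion-like class. Median depth was 37845 and 32454 UMIs in that class and 51248 and 44214 in the epiblast-like cluster. After thinning, TBXT was found in 10 of 43 cells of the epiblast-like cluster in library 1 (23.3%) and 20 of 80 in library 2 (25%), and in 0 of 683 and 0 of 923 trophectoderm/amnion-like cells, which allows shares of up to 0.439% and 0.325%. Without thinning the class had TBXT in 0.281% and 0.1% of cells and the cluster in 51.0% and 55.4%. MSGN1 and EOMES were likewise at 0 thinned cells of the class in both libraries, and at 11.6% and 13.8% (MSGN1) and 16.3% and 28.8% (EOMES) of the cluster. TBX6 came closest to its share in the class, with 9.30% and 10.0% of thinned cells in the cluster against 0.439% and 1.30% in the class. Whether UMIs in the class come from free RNA or from low expression was not tested. RSPO3 was found in 27.9% and 23.8% of thinned cells of the cluster against 1.02% and 0.758% in the class. For MIXL1 the shares were 30.2% and 38.8% against 0.732% and 0.542%, for MESP1 20.9% and 11.2% against 0.146% and 0.217%, and for APLNR 16.3% and 10.0% against 0.146% and 0 of 923 cells (a limit of 0.325%). For each of the 8 genes the share in the cluster was above that in the class in both libraries. Over all cells thinned to this depth, the share with TBXT was 1.33% and 1.85%, with TBX6 1.09% and 1.85% and with MIXL1 2.42% and 3.60%. The intervals and limits cover counting error only.

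The 8 genes met in part in the same cells. Most cells, 753 in library 1 and 1282 in library 2, had no UMI of any of them. UMIs of 3 or more of the genes were found in 29 cells in library 1 (3.09%, exact 95% interval from 2.08 to 4.41) and in 44 of library 2 (2.90%, 2.11 to 3.87). These 73 cells, chosen by UMIs of the genes, held 89.8% and 87.6% of all UMIs of the 8 genes. They were also deeper, with medians of 69226 and 56582 UMIs against 32810 and 22018 in cells with none of the genes, and the part of depth in these counts was not tested beyond the thinning below. All 8 genes were found together in 7 and 5 cells. By gene, the 73 cells held 97.7% and 94.4% of TBXT UMIs, 96.7% and 93.2% of MESP1 and 97.9% and 99.1% of MSGN1, but only 63.3% and 57.0% of TBX6. After thinning to 5000 UMIs, 13 of 827 cells in library 1 and 23 of 1138 in library 2 still showed 3 or more of the genes.

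Single cells show the mix. One cell of library 1 with 78332 UMIs held 34 UMIs of TBXT, 66 of MESP1, 22 of MSGN1, 11 of TBX6, 13 of EOMES, 60 of MIXL1, 11 of APLNR and 48 of RSPO3, with 0 of the pluripotency genes SOX2 and NANOG. One cell of library 2 with 110328 UMIs held 99 of MIXL1, 27 of EOMES, 7 of TBXT, 3 of MESP1 and 2 of TBX6, with 0 of MSGN1, APLNR and RSPO3, and had 14 of SOX2, 7 of NANOG and 36 of NODAL. Both were chosen as examples after their values were seen. The map of all 73 cells shows these patterns side by side.

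**Figure D1:**
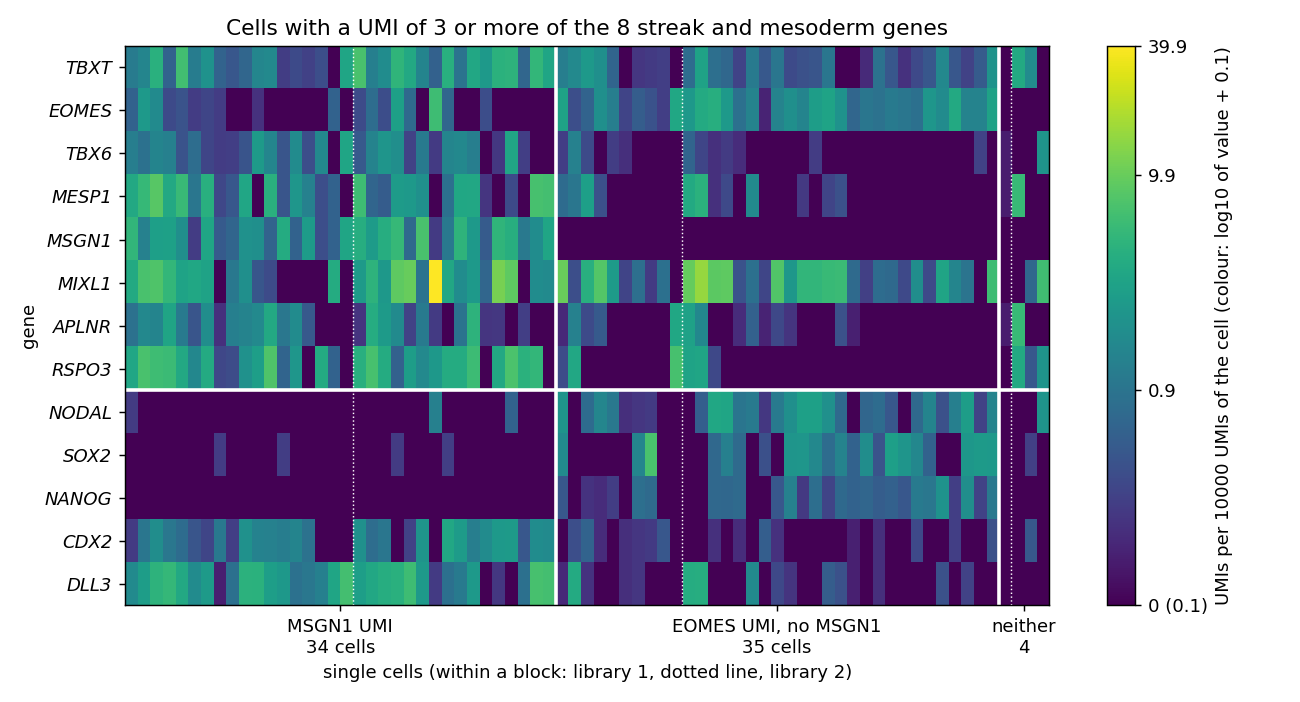
Each column is 1 of the 73 cells with UMIs of 3 or more of the 8 genes and each line 1 gene; colour gives UMIs per 10000 UMIs of the cell, on a log10 scale of value + 0.1. Cells are ordered by a grouping chosen after the values were seen: 34 cells with an MSGN1 UMI, 35 with EOMES and no MSGN1, and 4 with neither; SOX2 and NANOG are mostly dark in the first block, CDX2 and DLL3 mostly dark in the second.

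Many pairs of the 8 genes were found together more often than separate detection over all cells would give. Of 28 pairs, 17 had an expected share below the 95% interval of the observed share in both libraries after thinning to 5000 UMIs (18 in library 1 alone and 25 in library 2 alone). After thinning to 2000 UMIs 12 pairs did so, and without thinning all 28 did, at 3.78 to 42.2 times the expected number of cells. The pairing of the helix-loop-helix factors stood out: 4 thinned cells of library 1 held both MESP1 and MSGN1 against 0.0726 expected, and 5 cells of library 2 against 0.106. MSGN1 and RSPO3 met in 5 of 6 MSGN1 cells in library 1 and 10 of 11 in library 2. EOMES and MIXL1 met in 5 of 7 EOMES cells in library 1 and 16 of 29 in library 2. TBXT and EOMES differed between libraries, with 0 of 11 TBXT cells holding EOMES in library 1 and 9 of 21 in library 2. Of the 11 pairs that did not pass in both libraries, 6 contain EOMES, with APLNR, RSPO3, MESP1, MSGN1, TBX6 or TBXT. Expected numbers were taken over all cells, most of which had none of the 8 genes, so genes limited to the same cells exceed them. Within cells with 3 or more of the genes (29 and 44), 0 of 28 pairs passed in both libraries. Ratios to expectation there were 0.667 to 1.925. Those cells were chosen by their number of the genes, which itself alters the expectation, so this setting cannot decide on pairing within them. Counts per pair are small, no test was made over cells, and all genes of a cell share its depth.

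**Figure D2:**
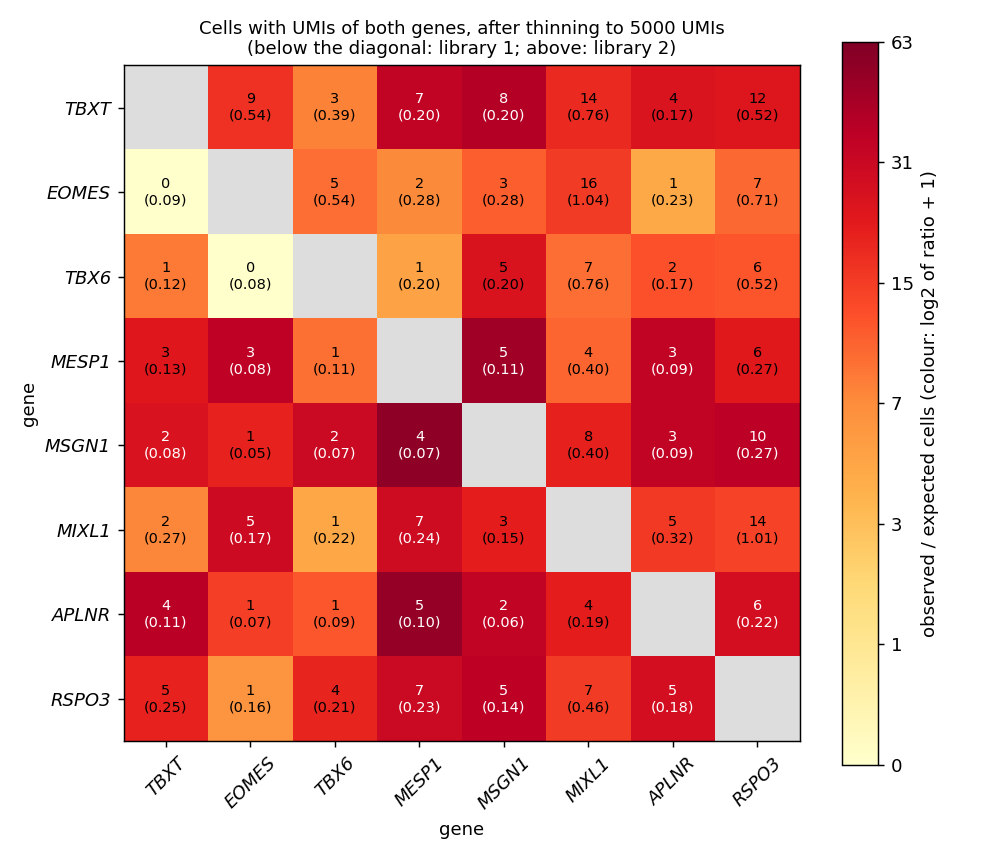
For each pair of genes, the number of cells with UMIs of both after thinning to 5000 UMIs and, in brackets, the number expected from separate detection; colour is their ratio, on a log2 scale of ratio + 1. Library 1 lies below the diagonal (827 cells) and library 2 above it (1138 cells), from 0 of an expected 0.0931 cells for TBXT with EOMES in library 1 to 4 of an expected 0.0726 for MESP1 with MSGN1.

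The clusters, which did not use the 8 genes, placed most of their UMIs in the epiblast-like cluster. That cluster held 68 of the 73 cells, and 87.8% and 90.9% of all UMIs of the 8 genes. It held 93.6% and 95.6% of TBXT UMIs, and 60.5% and 57.7% of TBX6 UMIs. A further 36.2% and 37.6% of TBX6 UMIs and 16.3% and 18.2% of RSPO3 UMIs lay in the trophectoderm/amnion-like class, at 2.02 and 1.55 CPM (TBX6) and 2.25 and 1.88 CPM (RSPO3). Within the cluster, 2 sub-clusters carried most of the signal. Neither is given a cell type name here, and each is called by its leading gene.

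The sub-cluster led by FSHR, followed by ZNF804B and the R-spondin receptor gene LGR5, had 15 and 17 cells, of which 31 had UMIs of 3 or more of the genes. It held 59.7% and 58.7% of all UMIs of the 8 genes. RSPO3 stood there at 372 and 355 CPM (364 ± 12, SD, n = 2), MESP1 at 322 and 213 (267 ± 76.8), MSGN1 at 187 and 295 (241 ± 76.5) and TBXT at 160 and 288 (224 ± 90.8). MIXL1 varied most, at 264 and 852 CPM (558 ± 416), and of the 636 MIXL1 UMIs in library 2, 219 came from 1 cell. APLNR stood at 153 and 131 CPM, TBX6 at 101 and 103, and EOMES at 49.3 and 129. NANOG was at 0 UMIs and SOX2 at 1.17 and 2.68 CPM. This sub-cluster had the highest mean of TBXT, TBX6, MESP1, MSGN1, MIXL1, APLNR and RSPO3 among the clusters and sub-clusters plotted. For MIXL1 this rested on library 2. In library 1 MIXL1 was higher in the sub-cluster led by FGF4, at 386 against 264 CPM.

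EOMES had its highest mean elsewhere, in the sub-cluster led by FGF4 (10 and 29 cells, 24 with 3 or more of the genes), at 117 and 150 CPM (134 ± 23.5, SD, n = 2). MIXL1 there was at 386 and 293 CPM and TBXT at 93.0 and 67.6. RSPO3, MSGN1, TBX6 and APLNR were low, at 5.16 and 3.60 (RSPO3), 0 and 2.16 (MSGN1), 8.61 and 4.32 (TBX6) and 12 and 5.03 CPM (APLNR). This sub-cluster kept SOX2 (62.0 and 104 CPM), NANOG (29.3 and 59.0) and NODAL (77.5 and 123), the ligand of the streak's inducing signal. MESP1 differed between the libraries, at 51.6 and 10.8 CPM. Sub-cluster 7.2, the highest in SOX2 at 367 and 250 CPM, had EOMES at 17.1 and 98.5 CPM and no UMI of MESP1, MSGN1, TBX6 or RSPO3. Sub-cluster 7.3, with APELA among its leading genes, had EOMES at 7.27 and 43.1 CPM and MIXL1 at 18.9 and 57.0. In both, EOMES was higher in library 2. Sub-cluster 7.5 (3 and 8 cells), whose leading genes include the amnion marker VTCN1, had MSGN1 at 154 and 15.4 CPM, and RSPO3 at 104 and 83.0. Single cells carried these levels: in library 1 all 55 MSGN1 and all 37 RSPO3 UMIs came from 1 cell, and in library 2 MSGN1 was in 1 of 8 cells and RSPO3 in 3.

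One further cluster had EOMES without most of the other genes. Cluster 8, of 61 cells all from library 2, led by the endoderm genes CER1 and SOX17, had EOMES at 64.3 CPM, MIXL1 at 26.5 and TBXT at 5.67, with SOX17 at 92.7 and 0 UMIs of MESP1, MSGN1, TBX6 and APLNR. Few of its cells carried these UMIs, since EOMES, MIXL1 and SOX17 were each found in 7 of the 61. The trophectoderm or amnion markers VTCN1 (119 CPM) and GATA3 (92.7 CPM) were found in 31 and 26. Its median depth was 5806 UMIs and it is left unnamed. A cluster from 1 library cannot be told apart from that library.

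**Figure D3:**
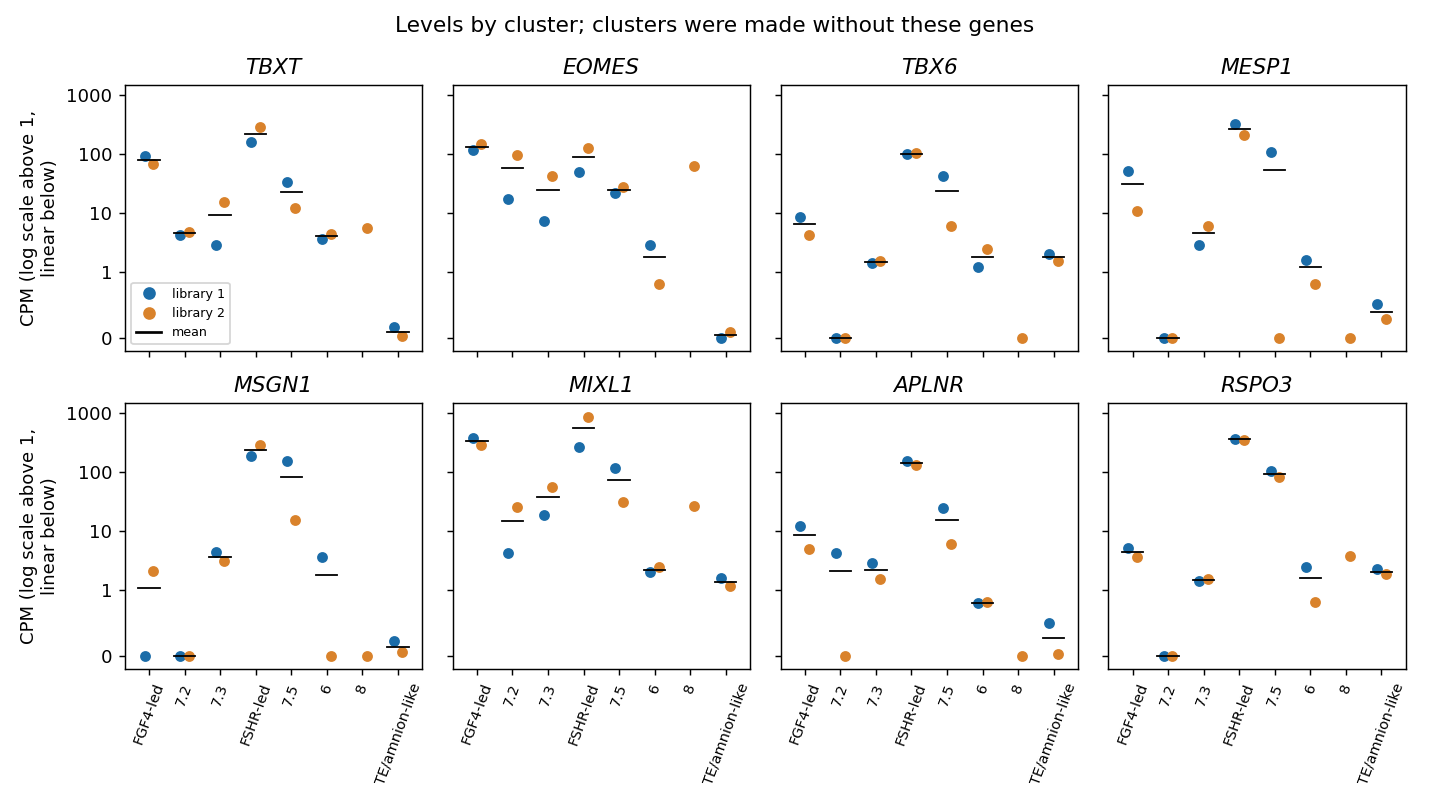
Level of each of the 8 genes in CPM (log axis above 1, linear below) in the sub-clusters of the epiblast-like cluster, in clusters 6 and 8 and in the trophectoderm/amnion-like class; points are libraries and bars the mean of both. EOMES is highest in the FGF4-led sub-cluster (134 CPM) and RSPO3 in the FSHR-led one (364 CPM), and cluster 8 has cells of library 2 only.

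The 73 cells with 3 or more of the genes spanned 2 ends, set apart here by MSGN1 and EOMES. This grouping and the genes set beside it were chosen after the values were seen, so they are a description without a test, and MSGN1 and EOMES themselves are not compared. An MSGN1 UMI was found in 18 and 16 cells, of which 26 lay in the FSHR-led sub-cluster. EOMES without MSGN1 was found in 10 and 25 cells, of which 22 lay in the FGF4-led sub-cluster. The ends were not exclusive, since 10 and 8 of the MSGN1 cells also held EOMES. Median depth was 70253 and 51842 UMIs at the MSGN1 end and 59841 and 69641 at the EOMES end.

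RSPO3 was the member that differed most between the ends, at 290 and 341 CPM in MSGN1 cells and 26.9 and 21.1 in EOMES cells without MSGN1. TBX6 stood at 84.0 and 99.3 against 16.8 and 6.46 CPM, APLNR at 123 and 96.6 against 20.2 and 20.6, and MESP1 at 265 and 161 against 55.5 and 32.9. TBXT stood at 131 and 295 against 95.8 and 55.8 CPM. The library values of MIXL1 overlapped between the ends, at 234 and 701 against 382 and 327 CPM. All these cells were chosen by UMIs of the genes compared, so the differences are partly set by the choice. How many of all genes separate the ends was not counted.

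Genes outside the 8, also picked after their values were seen, differed between the ends one by one. Of genes of the pluripotent state and of NODAL signalling, SOX2 stood at the EOMES end at 111 and 106 CPM against 3.33 and 2.72 in MSGN1 cells, NODAL at 79.0 and 115 against 1.66 and 12.2, and its co-receptor TDGF1 at 113 and 162 against 21.6 and 57.1. NANOG had no UMI in MSGN1 cells and 26.9 and 60.5 CPM at the EOMES end. The pluripotency gene SALL4 went the other way, at 183 and 215 CPM in MSGN1 cells and 75.6 and 113 at the EOMES end, and LIN28A did not separate the ends (222 and 239 against 208 and 236). POU5F1 was present at both, at 304 and 456 CPM in MSGN1 cells and 694 and 794 at the EOMES end. Of genes used in presomitic or migrating mesoderm, the NOTCH ligand gene DLL3 stood in MSGN1 cells at 241 and 215 CPM against 26.9 and 35.2, CDX2 at 91.5 and 144 against 18.5 and 8.81, and SNAI1, a repressor of E-cadherin, at 49.1 and 59.9 against 3.36 and 7.64. The values of CDX1 (55.8 and 49.0 against 101 and 17.6 CPM) and of the receptor gene KDR (132 and 99.3 against 97.5 and 102) overlapped. WNT5A stood at 183 and 200 CPM against 11.8 and 4.11, and WNT8A at 140 and 146 against 21.8 and 14.1, while WNT3 did not separate the ends in this way (53.3 and 65.3 against 68.9 and 72.3 CPM). The E-cadherin gene CDH1 was detected at both ends, at 149 and 96.6 against 141 and 162 CPM. The endoderm gene CER1 was high only in library 2 at the EOMES end, at 65.8 CPM against 5.04 in library 1.

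Whether each gene followed the other 7 was tested in classes that did not use the gene itself. For each gene, cells with UMIs of at least 2 of the other 7 were set against pluripotent cells (2 or more of SOX2, ZIC2, SFRP2 and MIR302CHG) and against all remaining cells. UMIs were summed per library and class, giving 6 sums, and tested over all genes with edgeR's quasi-likelihood test with the library as a block. Each of the 8 genes was called higher in both comparisons. Over all genes tested, 0.608% (EOMES classes) to 2.83% (MIXL1 classes) were called higher against pluripotent cells, and 13.9% to 23.4% against remaining cells (14.8% in the TBXT classes, 15.9% for MESP1, 16.1% for MSGN1 and APLNR, 20.5% for TBX6 and 19.1% for RSPO3). All 8 genes passed the filter on low counts, but in pluripotent cells alone only EOMES and MIXL1 would have passed it, and in remaining cells alone only MESP1, TBX6, MIXL1 and RSPO3. The count of calls is therefore given as a description, as are the adjusted p of genes that would not have passed.

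TBXT stood at 58.8 and 89.6 CPM in cells with other members and at 1.5 and 4.73 in pluripotent cells, a log2 difference of 4.53 (SE 0.277, edgeR adjusted p = 0.000757), against a background of 1.11% of genes called higher. Remaining cells had 0.0321 and 0.0811 CPM of TBXT. EOMES showed the smallest difference from pluripotent cells, at 33.3 and 103 CPM against 5.74 and 25 (log2 2.20, SE 0.221, edgeR adjusted p = 0.0181; 0.608% called higher). The EOMES call was lost when classes were set after thinning (log2 0.76, adjusted p = 0.376) and without the library block (log2 2.08, adjusted p = 0.361). TBX6 stood at 38.7 and 22.9 CPM against 0.389 and 2.30 (log2 4.35, SE 0.537, edgeR adjusted p = 0.00914; 1.9% called higher), and at 2.00 and 1.53 CPM in remaining cells, the smallest difference from those cells (log2 4.04). In library 1 alone the TBX6 difference from pluripotent cells was 6.11 and in library 2 alone 3.20 on the log2 scale.

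MESP1 stood at 99.1 and 41.4 CPM with 1 UMI in all pluripotent cells, a ratio of 366 with a counting interval of 65.5 to 14496 (edgeR adjusted p = 0.00159; 1.04% called higher). MSGN1 stood at 61.4 and 53.2 CPM with 0 UMIs in pluripotent cells, at least 102-fold higher when 3 UMIs over both libraries are taken as the floor (edgeR adjusted p = 0.00195; 0.992% called higher). MIXL1 stood at 215 and 302 CPM against 3.89 and 12.9 (log2 4.90, SE 0.235, edgeR adjusted p = 0.000132; 2.83% called higher). With classes set after thinning the MIXL1 difference fell to 2.08 on the log2 scale and was no longer called (adjusted p = 0.111). APLNR stood at 43.2 and 25.2 CPM against 1.55 and 0 (log2 5.49, SE 0.506, edgeR adjusted p = 0.00531; 0.992% called higher), resting on 4 UMIs in pluripotent cells of library 1. RSPO3 stood at 127 and 77.2 CPM against 1.44 and 2.89 (log2 5.48, SE 0.337, edgeR adjusted p = 0.00142; 1.59% called higher). The lower library value of each gene in cells with other members was above its higher value in pluripotent cells. With classes set after thinning the MESP1 difference was 4.62 on the log2 scale against 8.44 (adjusted p = 0.0104), below the counting interval above. TBXT moved to 3.72, APLNR to 4.86 and RSPO3 to 6.31 under that setting, and APLNR to 6.44 with 3 genes required. Values from 1 library alone also differed. Library 1 gave 5.18 for TBXT, 5.71 for MIXL1, 4.67 for APLNR and 6.26 for RSPO3 on the log2 scale. Library 2 gave 4.12, 4.49, 7.46 and 4.63. These values, and those of TBX6 above, are differences of log2 CPM with a prior count, not values of the fit. Shifts from the fitted values therefore also reflect the method. MSGN1, for instance, was at 8.49 and 8.53 in the single libraries and at 12.57 in the fit. Cells with other members were deeper than pluripotent cells, at medians of 62564 and 51520 against 51248 and 42106 UMIs when all 8 genes set the class. The part of depth in these differences was not tested. Thinning set the classes only, and the UMIs summed were not thinned. With all 8 genes setting those classes, medians were 69940 and 53450.5 against 51248 and 43911 UMIs. Fewer cells then had 2 or more of the genes, 22 and 34 against 52 and 75 without thinning.

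**Figure D4:**
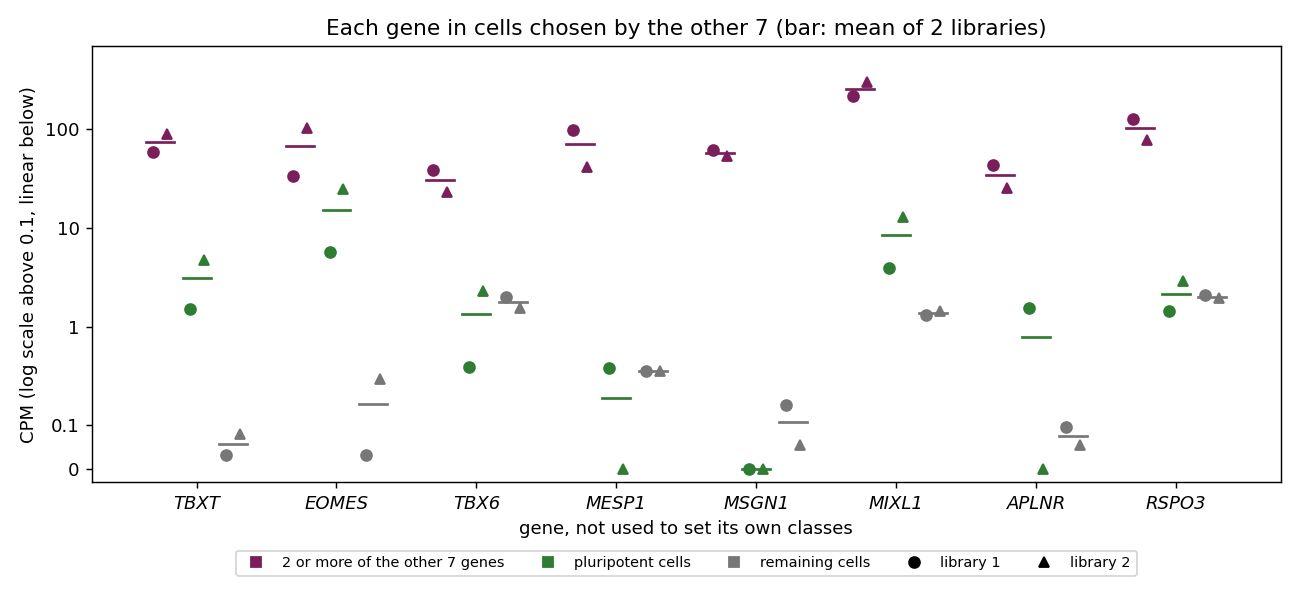
Level of each gene in CPM (log axis above 0.1, linear below) in cells with UMIs of 2 or more of the other 7 genes, in pluripotent cells and in remaining cells; symbols are the libraries and bars the mean of both. The gene plotted did not set its own classes; EOMES lies nearest to pluripotent cells (33.3 and 103 against 5.74 and 25 CPM) and MSGN1 is at 0 there.

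With all 8 genes setting the class, 52 and 75 streak-gene cells were set against 41 and 45 pluripotent cells to see which other genes went with them. The class names give only the rule of choice, and both classes held mixed cells. Of the streak-gene cells of both libraries, 84 lay in the epiblast-like cluster and 31 in the trophectoderm/amnion-like class. Of 14923 genes tested, 197 were called (1.32%), 148 higher (0.992%) and 49 lower (0.328%). Requiring 3 of the genes gave 394 higher and 361 lower, on a class with fewer cells of other types: the summed level of 16 trophectoderm or amnion markers was 3012 and 1923 CPM in the class of 2 or more genes, 1950 and 791 in that of 3 or more, and 2365 and 3471 in pluripotent cells. In remaining cells that sum was 4549 and 4652 CPM. The part of cells of other types in the differences was not tested beyond the setting of 3 genes.

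Several other genes of the streak and nascent mesoderm rose with the 8. Of 22 on the list, 17 were tested, 9 were called higher and 0 lower (background 0.992% and 0.328%), with a median log2 difference of 2.50 against 0.01 over all genes. With 3 genes required, 14 of 18 were called higher. This list and those below were chosen with earlier results of these data known. Listed genes near 0 in pluripotent cells, such as DLL3 (4 UMIs), CDX1, LHX1 and EVX1, had little room to be called lower. In the lists below this also holds for WNT3A, FGF17, FGF4 and SNAI1, among others. Counts of calls per list, and the adjusted p of such genes, are therefore given as a description. DLL3 rose most, at 82.6 and 51.8 CPM against 1.17 and 0.361 in pluripotent cells (log2 6.43, SE 0.329, edgeR adjusted p = 0.00118). The homeobox genes CDX1 (35.7 and 17.8 against 0.777 and 1.08 CPM), LHX1 (20.1 and 34.7 against 1.94 and 0.722) and EVX1 (12.9 and 15.3 against 0.777 and 0.722) rose too, with log2 differences of 4.78, 4.32 and 4.19 and edgeR adjusted p of 0.0278, 0.00965 and 0.0224. The calls of CDX1 and EVX1 were lost with classes set after thinning (adjusted p = 0.0655 and 0.052). CDX2, FOXC1, PDGFRA, KDR and WNT5B made up the 9. PDGFRA, a receptor of migrating mesoderm, stood at 38.6 and 26.8 CPM against 6.61 and 4.69 (log2 2.50, edgeR adjusted p = 0.00867).

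Ligands of the pathways that induce the streak rose in part. Of 16 ligand and co-receptor genes 14 were tested, and 7 were called higher and 0 lower by edgeR, with a median log2 difference of 1.91. With 3 genes required, 7 were higher and 2, BMP7 and FGF2, lower, and with classes set after thinning 8 were higher and 1 lower. The called genes were NODAL, WNT3, WNT3A, WNT5A, WNT8A, FGF4 and FGF17. WNT8A stood at 49.1 and 34.5 CPM against 4.28 and 2.53 (log2 3.60, SE 0.379, edgeR adjusted p = 0.00824), WNT3A at 21.7 and 16.2 against 1.17 and 1.08 (log2 4.04, edgeR adjusted p = 0.01). FGF17 stood at 22.8 and 64.6 against 0.389 and 2.89 CPM (log2 4.68, edgeR adjusted p = 0.00403). FGF4 had 4.29 and 28 CPM and 0 UMIs in pluripotent cells, at least 30.3-fold higher against 3 UMIs (edgeR adjusted p = 0.0247), a call that DESeq2's Wald test did not make (adjusted p = 0.389). NODAL stood at 14.7 and 58.3 against 6.61 and 14.8 CPM (log2 1.64, SE 0.265, edgeR adjusted p = 0.0404). BMP4 was not called, at 41.8 and 31 against 34.6 and 43.0 CPM.

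Of 16 WNT targets and R-spondin partners 13 were tested and 3 were called higher, 0 lower, with a median log2 difference of 0.76. With 3 genes required 4 were higher and 1 lower, and with classes set after thinning 5 and 1. NKD1, a feedback inhibitor, stood at 34.6 and 42.8 CPM against 10.5 and 6.86 (log2 2.15, edgeR adjusted p = 0.0154), the WNT-responsive factor SP5 at 55.8 and 137 against 22.2 and 54.9 (log2 1.30, adjusted p = 0.00801), and the transcription factor LEF1 at 108 and 93.3 against 31.5 and 36.5 (log2 1.53, adjusted p = 0.00806). LGR5, a receptor for R-spondins, stood at 24.1 and 30.3 CPM against 12 and 7.22 and was not called (log2 1.48, edgeR adjusted p = 0.0598). DESeq2's Wald test called it (adjusted p = 0.0116), and so did edgeR with classes set after thinning (log2 4.58, adjusted p = 0.0164). The APLNR ligand gene APELA went the other way, at 11.8 and 52.5 CPM against 127 and 92.1 (log2 -1.88, edgeR adjusted p = 0.184). It was called lower with 3 genes required (log2 -2.78, edgeR adjusted p = 0.0081) and with classes set after thinning (log2 -3.56, adjusted p = 0.0173), and DESeq2's Wald test called 0; at an unadjusted p under 0.05 edgeR had this 1 gene lower. APLN, the gene of the other ligand, was too low to be tested.

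Of 12 genes of the epithelial to mesenchymal transition, SNAI1 and the N-cadherin gene CDH2 were called higher and 0 lower, with a median log2 difference of 0.01. With 3 genes required 3 were higher and 2 lower (median -0.52), and with classes set after thinning 4 and 1 (median 1.30), so the sign of the median depended on the class. SNAI1 stood at 17.7 and 13.9 CPM against 0.389 and 1.44 (log2 4.03, edgeR adjusted p = 0.0191), CDH2 at 193 and 254 against 42.8 and 46.9 (log2 2.28, edgeR adjusted p = 0.00195). Of 5 definitive endoderm genes tested, GATA4, GATA6 and CER1 were called higher and 0 lower. GATA6, which mesoderm also uses, stood at 45.3 and 42.6 CPM against 7.77 and 9.75 (log2 2.29, edgeR adjusted p = 0.00403). CER1 rested on library 2 (4.56 and 45.8 against 0.777 and 3.25 CPM) and was not called with 3 genes required (log2 1.60, edgeR adjusted p = 0.0787). SOX17, which defines endoderm together with FOXA2, was at 0 and 12.3 CPM against 9.72 and 0.722 and was not called.

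Of 11 pluripotent epiblast genes tested that did not set the classes, edgeR called 0 in either direction, 0 reached an unadjusted p under 0.05, and DESeq2 called 0, with a median log2 difference of -0.01. POU5F1 stood at 256 and 566 CPM in streak-gene cells and 358 and 418 in pluripotent cells. With 3 genes required 1 of the 11, SALL4, was called higher (median 0.21). With classes set after thinning 1, LIN28A, was called lower (log2 -0.58, edgeR adjusted p = 0.0476), 6 were lower at an unadjusted p under 0.05, and the median was -0.53. Of 16 trophectoderm or amnion genes edgeR called 1, TP63, lower (8.85 and 3.93 against 41.2 and 25.6 CPM, log2 -2.43, adjusted p = 0.0371) and 0 higher; this call was lost with classes set after thinning, and with 3 genes required 2 were lower. Of 9 mesenchyme genes THY1 alone was called higher, and 1 was called lower by DESeq2 and with 3 genes required. Of 3 endothelium and blood genes and 5 neural genes tested edgeR and DESeq2 called 0; at an unadjusted p under 0.05 edgeR had 1 and 1. With classes set after thinning 1 of the 3 was called higher and 2 of the 5 lower (medians 0.52 and -2.18), and with 3 genes required 1 of the 3 was called higher. CDH5 and PECAM1, which define endothelium, had 0 UMIs in both classes. Of 4 primordial germ cell genes edgeR called 0 and 2 were lower at an unadjusted p under 0.05, and DESeq2 called 1, TFAP2C, lower; with 3 genes required edgeR called 1 lower.

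**Figure D5:**
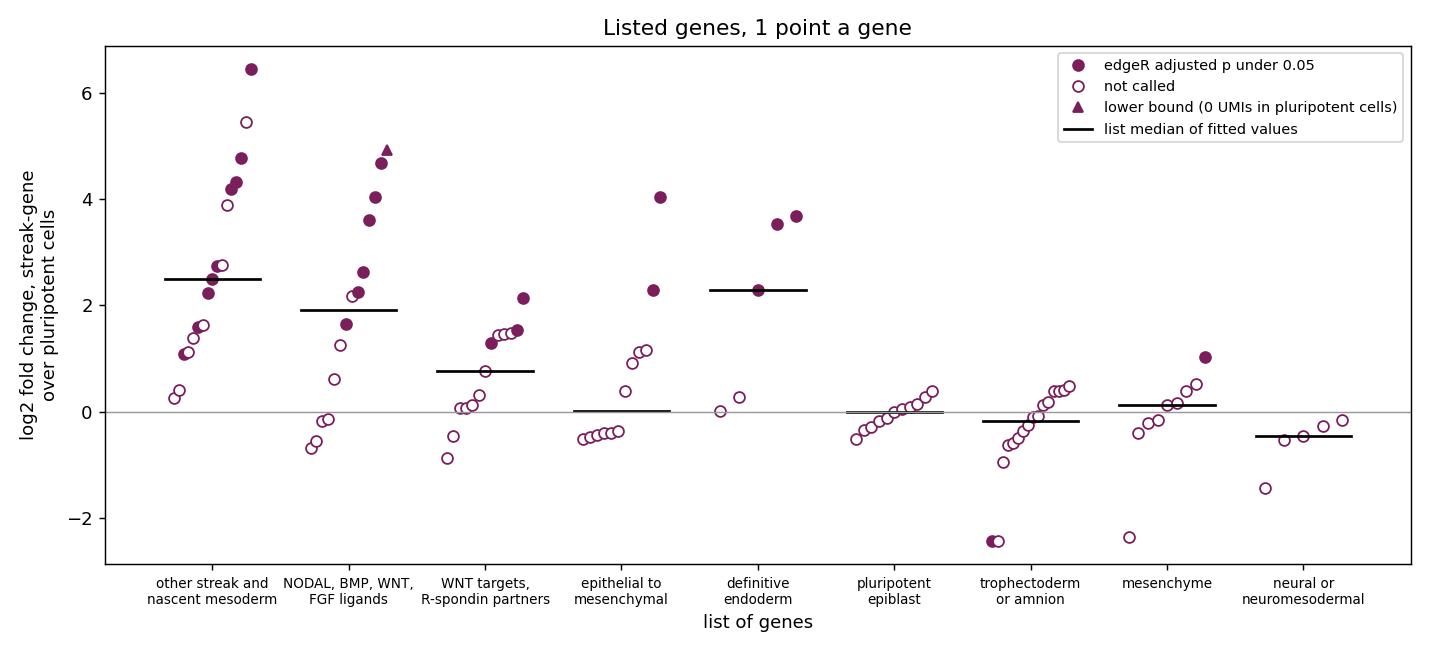
Log2 fold change between streak-gene and pluripotent cells for each listed gene, 1 point a gene, filled where edgeR's adjusted p is under 0.05; the triangle is FGF4 at its lower bound and bars are list medians. Streak genes (median 2.50), ligands (1.91) and endoderm genes (2.29) lie mostly above 0 and pluripotent epiblast genes around it (-0.01).

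Among genes with a symbol, on no list and at 50 CPM or more in 1 class, the largest called rise was that of ZNF804B, at 301 and 79.6 CPM against 2.33 and 1.44 (log2 6.49, SE 0.716, edgeR adjusted p = 0.00982), higher in library 1. With 10 UMIs in all pluripotent cells ZNF804B had little room to be called lower, so its adjusted p is a description. The non-coding genes LINC01356 and LINC00458 rose by 3.38 and 2.78, STEAP1B by 3.15, the protease inhibitor gene SERPINE2 by 3.07, the neuropeptide gene GAL by 2.99, the protocadherin gene PCDH10 by 2.88 and NKAIN2 by 2.82 on the log2 scale. GAL stood at 493 and 655 CPM against 49.4 and 93.5. Among the largest called falls at that level were SLC8A1 (-2.43), PLPP1 (-1.98), FAM20A (-1.83), KCTD8 (-1.78), PDPN (-1.72), SEMA3D (-1.48), IL6ST (-1.44), HPGD (-1.42) and NFIB (-1.41). With classes set after thinning SLC8A1, SEMA3D and IL6ST changed sign, and KCTD8, HPGD, NFIB and STEAP1B were no longer called. PLPP1, FAM20A and PDPN are the named falls whose calls did not depend on that setting.

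Against all remaining cells, mostly trophectoderm/amnion-like, 4413 of 14923 genes were called (29.6%), 2399 higher (16.1%) and 2014 lower (13.5%). Streak and nascent mesoderm genes other than the 8 were called higher in 15 of 17 tested, ligands in 12 of 14 and WNT targets in 10 of 13, and 0 of these were called lower. Among genes at 50 CPM or more in 1 class, other than the 8 and the 4 pluripotent genes that set the classes, the largest called rises were SP5 (55.8 and 137 against 0.225 and 0.57 CPM, log2 7.85, edgeR adjusted p = 4.61e-06), TDGF1 (log2 7.64), ZEB2 (log2 6.92), HPAT5 (log2 6.67) and ZNF804B (log2 6.61). ZEB2, a repressor of the epithelial state, stood at 53.1 and 48.4 CPM against 0.481 and 0.326. Of 16 trophectoderm or amnion genes 11 were called lower, led by CGA at 1.13 ± 0.294 CPM against 14.4 ± 7.94 (SD, n = 2; log2 -3.64). Pluripotent epiblast genes were called higher in 9 of 11. Cells with 2 or more of SOX2, ZIC2, SFRP2 and MIR302CHG are by definition not among remaining cells. Rises of genes of the pluripotent state in this comparison are therefore partly set by the choice of classes. Among genes at 50 CPM or more in 1 class the largest called falls were IL1RAPL2 (-2.44), ANKRD1 (-2.08), NDNF (-2.05), COL12A1 (-2.03) and TGFB2 (-2.00). Pluripotent cells and streak-gene cells come from the same fit, so both comparisons share the streak-gene sums.

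Across 25 sums of clusters and sub-clusters by library, the gene with the pattern most like TBXT was EVX1 (Pearson r = 0.98 of log2(CPM + 10), over 12977 genes). The next genes outside the 8 were LNCDAT (0.97), which overlaps TBXT, then NKAIN2 (0.96), ADAMTS15 (0.95) and 4 genes known by Ensembl ID only, with r from 0.948 to 0.984 over all 8. Among the members MIXL1 (0.97) and MESP1 (0.94) were closest to TBXT, followed by APLNR (0.88), EOMES (0.82), TBX6 (0.81), RSPO3 (0.81) and MSGN1 (0.80). Over all genes, MIXL1 ranked 3, MESP1 16, APLNR 54, EOMES 127, TBX6 137, RSPO3 147 and MSGN1 156. Many genes outside the 8 were thus closer to TBXT than EOMES, TBX6, RSPO3 and MSGN1 were. The sums share libraries and depth, so these values are a description.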

How the data were processed

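UMI counts per gene and barcode were deposited by the authors for 2 libraries of 1 group, made with the 10x 3' kit per the labels' protocols and with Cell Ranger 9.0.0 on GRCh38 per the submitters' processing notes. The annotation, strand setting and cell filters are not given in the sources used here. Every deposited barcode has at least 200 detected genes. The libraries held 38665475 and 45208758 UMIs.

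From these counts, barcodes with 1000 or more genes and up to 20% mitochondrial UMIs were taken as cells. The 8 genes and all gene lists were chosen with earlier results of these data known. Scanpy 1.11.5 clustered the cells (2000 variable genes, 30 components, 15 neighbours, Leiden resolution 0.5) without the 8 genes and the other streak genes. Scrublet (0.8% expected per 1000 cells) marked doublets, which were kept. Thinning drew 5000 UMIs per cell and left out 110 and 381 shallower cells (11.7% and 25.1%). Intervals are exact Clopper-Pearson at 95%, and a count of 0 allows 3 counts.

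UMIs were summed per library and class (6 sums) and tested with edgeR 4.0.16 (TMM, filterByExpr, quasi-likelihood, library as a block, Benjamini-Hochberg over all genes, threshold 0.05) in R 4.3.3. SE is the size of the log2 difference over the square root of F. The procedure was also run on simulated sums with a fixed spread, no library effect and no choice of cells by their UMIs. That run therefore does not cover these limits of the real sums. Both classes of a comparison come from the same library, so the library pairs the sums by design.

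Named genes were the members, the 10 largest called rises and falls against pluripotent cells and 5 against remaining cells (50 CPM or more, same direction in both libraries), up to 4 genes of each list at 10 CPM or more, and the 8 genes most like TBXT. A gene that this rule takes among the falls is not reported here. Other listed genes were named after their values were seen. Alternatives were DESeq2 1.42.0, its size factors, no filter, no block, deeper cells with classes set after thinning, a limit of 3 genes, 6 transcription factors only, all barcodes, no doublets and 1 library.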

Additional observations from a re-analysis of the deposited data

Results flagged for a closer look

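UMIs of the 8 genes also occurred in barcodes that the filter left out, above the 3 UMIs that a count of 0 allows. In library 1, barcodes under 1000 genes held 6 UMIs of TBXT, 13 of MESP1, 7 of MIXL1 and 5 of RSPO3. In library 1, barcodes over 20% mitochondrial UMIs held 5 of MSGN1, 4 of MIXL1 and 5 of RSPO3. In library 2, barcodes under 1000 genes held 4 UMIs of MIXL1. Over the 8 genes, the 980 barcodes under 1000 genes of library 1 held 37 UMIs (62.5 CPM) and the 1013 of library 2 held 9 (13.0 CPM), against 61.2 and 68.5 CPM in kept cells.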

How the results depend on the processing

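Against pluripotent cells, 197 genes were called. DESeq2's Wald test called 318, no filter on low counts 920, deeper cells with classes set after thinning 396 and a limit of 3 genes 755. For higher genes (148) these were 515 without the filter, 257 in deeper cells, 394 with 3 genes and 223 with 6 transcription factors setting the class. For lower genes (49) they were 106 with DESeq2, 405 without the filter, 139 in deeper cells and 361 with 3 genes. Against remaining cells the 2014 lower genes became 1254 with DESeq2, 3210 without the filter and 3228 with 3 genes. The summed level of the 8 genes, 64.9 CPM, was 43.3 as a mean over cells and 61.2 to 68.5 with either library left out. Pairs above expectation were 17, and 28 without thinning, 12 when thinned to 2000 UMIs and 18 to 25 with either library left out. In deeper cells SLC8A1 (2.10), SEMA3D (1.19) and IL6ST (0.13) changed sign on the log2 scale. The causes were not tested.

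Without the replicate block, which pairs the classes of a library, 162 genes were called against pluripotent cells and 4598 against remaining cells, and 7 and 8 of the 8 genes were called from the other 7, the lost one being EOMES. Of 128 tested values for the 8 genes under alternatives, 125 kept their direction and side of the threshold and 3 lost the call. The 3 were EOMES after thinning and without the block, and MIXL1 after thinning, all against pluripotent cells. EOMES and MIXL1 are the only genes that would have passed the filter in pluripotent cells alone. Neither was called against those cells with classes set after thinning, so the count of 125 is a description. Of 935 for named and listed genes 878 did so, 17 lost and 37 gained a call and 3 reversed. With 1 library left out the sums have no residual degrees of freedom and give values without a test. With 2 libraries and few cells per class, low genes such as MSGN1 and APLNR in pluripotent cells are limited by depth.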
